A study of Bos taurus with 56 samples.

Results

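The regions described here are peaks of accessible chromatin in 3 windows of cattle chromosome 17, in which the oocyte lists held almost no peaks. Dense runs of peaks in the embryo lists lay mainly in the first and the third window, and the second was sparser. A peak was a member when its centre lay between 25 and 26 Mb (the first window), between 35 and 36 Mb (the second window) or between 50 and 52 Mb (the third window). The windows were selected on the positions and numbers of peaks in these same lists, so that the number of members in a list is a description of the choice and supports nothing. In all, 1331 of the 673059 peaks of the 11 lists were members, with 304 in the first, 148 in the second and 879 in the third window, and the other 18788 peaks of chromosome 17 served as background. Positions are those of the genome build UMD3.1.

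Chromatin was profiled by ATAC-seq, in which a transposase cuts and tags the DNA of open chromatin. The libraries came from pooled oocytes at the germinal vesicle (GV) stage (6 libraries) and at metaphase II (MII, 5), and from pooled embryos of the 2-cell (6), 4-cell (6), 8-cell (5) and 16-cell stage (5), in vivo morulae (4), morulae (6), in vivo blastocysts (4), blastocysts (3) and elongating day 14 embryos (6). The morulae and blastocysts named in vivo were derived in vivo per the labels, and the labels of the other groups do not say how their oocytes or embryos were produced. The authors deposited 1 merged peak list per group, with no height or read count, so the spread between libraries could not be computed, no test was possible and the sequencing depth is unknown.

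In early development the embryo starts from the chromatin of a meiotically arrested oocyte and of the sperm, runs at first on stored maternal RNA, and then switches on its own genome. Accessible chromatin is reorganised along this path, at the cleavage stages, in the compacting morula and in the blastocyst, where trophectoderm and inner cell mass separate. Most accessible sites in a genome are short and stand alone at promoters and enhancers, while runs of many neighbouring peaks are seen over gene clusters, strong enhancer clusters and repeat arrays. No gene annotation or sequence of the build UMD3.1 was used, so the members are given by position alone, without genes or sequence.

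The windows make up 5.32% of the length of chromosome 17 (4.0 Mb). They held 50 of the 106 chromosome 17 peaks of 2-cell embryos (47.2%, 95% exact Clopper-Pearson interval 37.4% to 57.1%) and 48 of the 195 of 4-cell embryos (24.6%, interval 18.7% to 31.3%). In the long lists of the next stages the windows held 123 of 1811 peaks at the 8-cell stage (6.79%), 160 of 1988 at the 16-cell stage (8.05%), 154 of 1451 in in vivo morulae (10.6%) and 168 of 2368 in morulae (7.09%). Blastocysts had the highest shares, with 111 of 166 peaks in in vivo blastocysts (66.9%, interval 59.2% to 74.0%) and 151 of 193 in blastocysts (78.2%, interval 71.7% to 83.8%). Day 14 embryos had the most members, 365, which were 3.11% of the 11720 peaks on that chromosome. These intervals cover counting error only and treat neighbouring peaks as independent.

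**Figure D1:**
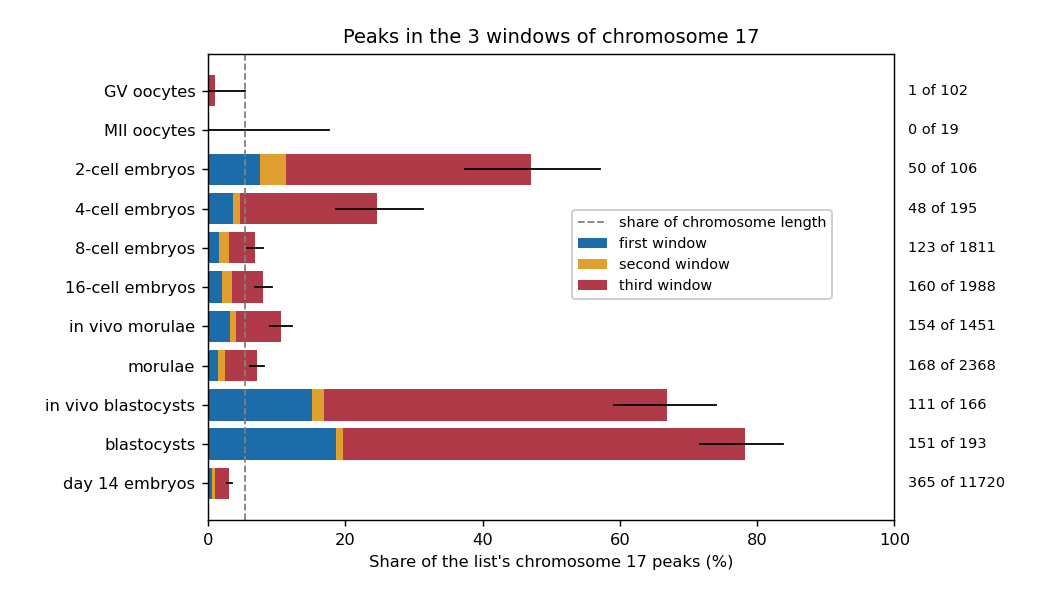
Share of each list's chromosome 17 peaks that lay in the 3 windows, in percent, stacked by window. Black lines are 95% exact intervals of the summed share, the dashed line marks 5.32%, the windows' share of the chromosome length, and the numbers at the right give members of all chromosome 17 peaks. The 2-cell and 4-cell bars and both blastocyst bars reach past 20%, and the day 14 bar ends at 3.11%.

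Oocytes had 1 member. It lay in the third window, in the GV list, from 51756634 to 51757019 (386 bp), overlapped peaks of in vivo morulae, morulae and day 14 embryos, and stood 126 kb beyond the last of the blocks described below. The other 101 GV peaks of the chromosome lay outside the windows. MII oocytes had no member among 19 peaks, which allows a share of up to 15.8% when a count of 0 is taken to allow 3, and of up to 17.6% by the exact interval.

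Peak density separated the lists into those with a bare chromosome outside the windows and those without. Members per Mb against peaks per Mb in the rest of chromosome 17 were 12.5 against 0.787 in 2-cell embryos (15.9 times) and 12.0 against 2.07 in 4-cell embryos (5.81 times). From the 8-cell stage to the morula the ratio was between 1.30 in 8-cell embryos and 2.11 in in vivo morulae. The rest of the chromosome held 18.2 to 30.9 peaks per Mb in those lists. These ratios pool the 3 windows, and the second, of 1 Mb, was not denser than the rest in every list. It held 2 peaks in 4-cell embryos, 13 in in vivo morulae and 21 in morulae. The rest held 2.07, 18.2 and 30.9 peaks per Mb there. In 8-cell embryos the second window was nearly level with the rest, with 25 peaks against 23.7 per Mb. It was denser than the rest in the 2-cell, 16-cell and both blastocyst lists. In in vivo blastocysts 27.8 members per Mb stood against 0.773 in the rest (35.9 times), and in blastocysts 37.8 against 0.590 (64.0 times). Against the other autosomes the ratios of the blastocyst lists were nearly equal, 31.1 times in vivo and 32.4 times without the label. Among peaks of at least 329 bp the 2-cell ratio was 28.5. The day 14 list held fewer peaks per Mb in the windows than in the rest, 91.2 against 160 (0.572 times), while the share of bases under peaks was 5.81% in the windows and 5.42% in the rest.

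The high density of chromosome 17 in the short embryo lists lay in the windows. Whole chromosome 17 had 2.07 times the peak density of the other chromosomes in the blastocyst list and 2.36 times in the in vivo blastocyst list. Without the windows the values were 0.476 times and 0.825 times. In the 2-cell list the corresponding ratios were 1.44 times for the whole chromosome and 0.804 times without the windows. In the other 8 lists chromosome 17 without the windows had between 0.848 times (in vivo morulae) and 1.14 times (day 14 embryos) the density of the other chromosomes, and the blastocyst value was the lowest of the 11. Among the 76 windows of 1 Mb along the chromosome, that from 51 to 52 Mb ranked first and that from 50 to 51 Mb second in the 2-cell, 4-cell and both blastocyst lists. In blastocysts they held 70 and 43 peaks, while the fullest window of 1 Mb outside the 3 windows held 14. In day 14 embryos the 4 windows of 1 Mb ranked 28th to 54th.

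The third window, which is also the longest, carried most of the members at every embryonic stage. The 2-cell list had 8, 4 and 38 members in the first window, the second and the third, and the 4-cell list 7, 2 and 39. The 8-cell list had 30, 25 and 68, and the 16-cell list 40, 30 and 90. Morulae had 47, 13 and 94 members in the in vivo list and 36, 21 and 111 in the other list. Blastocysts had 25, 3 and 83 in the in vivo list and 36, 2 and 113 in the other list, and day 14 embryos had 75, 48 and 242. The second window was nearly empty in both blastocyst lists, with 3 and 2 peaks, whereas the first and the third were not.

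**Figure D2:**
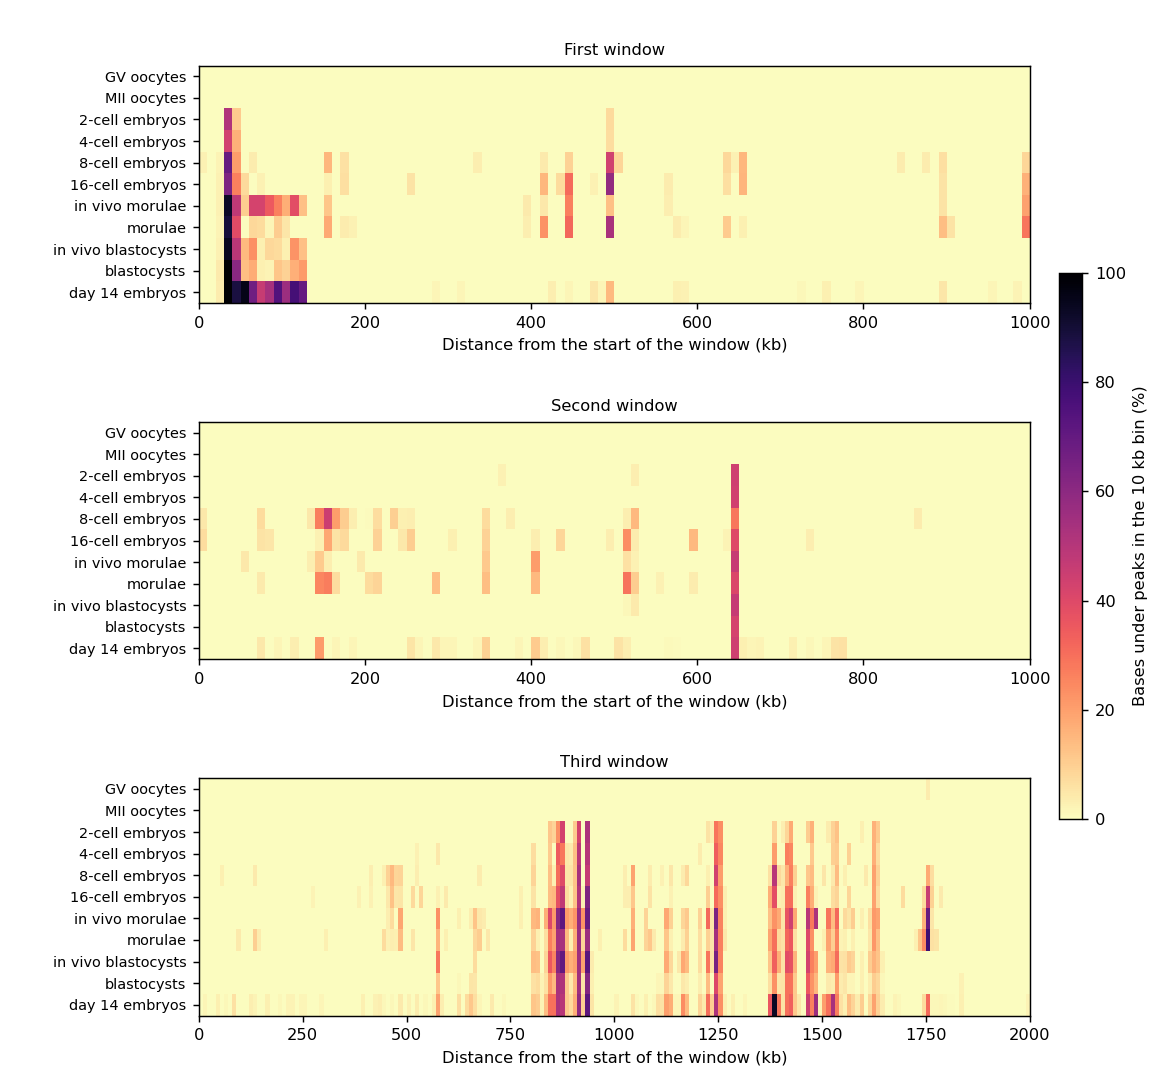
Share of bases under peaks in each 10 kb bin of the first window, the second and the third (panels from top to bottom), by list, against the distance from the start of the window in kb. Dark columns that run down through the 9 embryo rows are the stretches open at every embryonic stage, and the 2 oocyte rows are empty but for 1 pale bin toward the right end of the third window.

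The same places were covered by peaks at stage after stage. A total of 28468 bp in the windows lay under a peak in all 9 embryo lists, against 6178 bp in the rest of the chromosome, so that the windows held 82.2% of such bases of chromosome 17 and had 82.0 times their density. These bases formed 40 segments in the windows, of which 7 lay in the first, 2 in the second and 31 in the third, with a median width of 512 bp and a longest of 2755 bp. None of the 40 overlapped an oocyte peak, whereas 2 of the 8 segments in the rest of the chromosome did. The windows were selected on peaks of these same lists, so the contrasts with the rest in this paragraph follow in part from the choice. They describe the windows and support nothing further. Bases under a peak in at least 1 embryo list were about equally frequent, 9.36% of the windows and 8.48% of the rest. The difference opened with the number of lists, with 2.15% against 0.203% for at least 5 lists and 1.66% against 0.0267% for at least 6. Over the whole genome 78093 bp lay under peaks of every embryo list and of no oocyte list, and the windows, 0.150% of the genome length, held 36.5% of them. Chromosome 17 ranked first of 30 chromosomes by this measure with 32723 bp, ahead of chromosome 29 with 5822 bp and chromosome 1 with 5793 bp. The lead was smaller when bases with an oocyte peak were kept. The windows then held 13.0% of the 219319 bp under peaks of every embryo list. Chromosome 17 had 34646 bp of these and chromosome 14 had 25203 bp. The genome shares of the windows and the rank of chromosome 17 follow in part from the choice of the windows too.

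**Figure D3:**
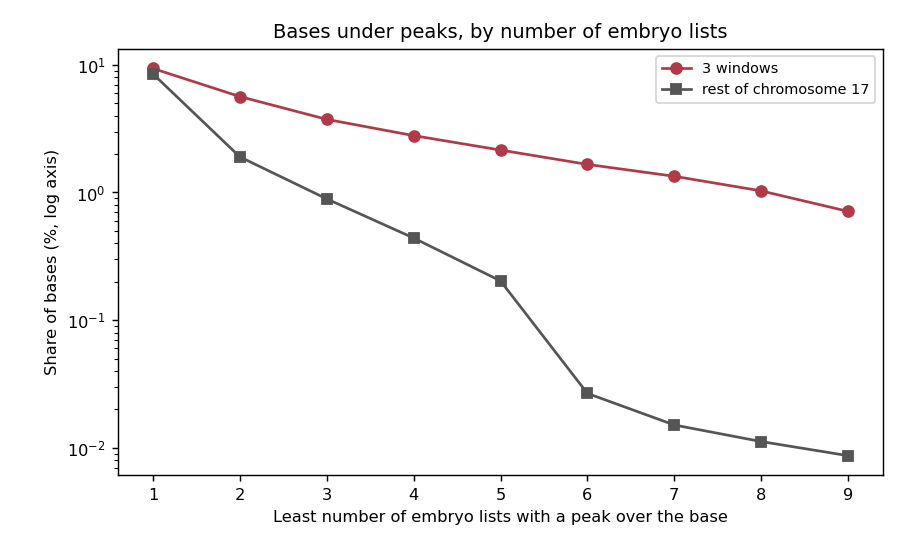
Share of bases (percent, log axis) that lay under a peak in at least the given number of the 9 embryo lists, for the 3 windows (circles) and the rest of chromosome 17 (squares). The lines start together at 9.36% and 8.48% and end at 0.712% for the windows and 0.00868% for the rest.

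Joining overlapping peaks of all lists gave 451 regions in the windows and 13933 in the rest of the chromosome, of which 4 stage patterns were counted, all but the first of them set after the values were seen. Regions found in each of the 9 embryo lists but not in oocytes numbered 18 in the windows, 3.99% of the regions there, and 5 in the rest, 0.0359%. Where each list had to cover 50% of the region, the counts were 9 in the windows and 1 in the rest. Of the 18, 16 lay in the third window and 1 in each of the others. A pattern of peaks in both blastocyst lists with none in the oocyte or the 2-cell to 16-cell lists was found for 21 regions in the windows (4.66%) and for 1 in the rest (0.00718%). All 21 were also in the day 14 list, 13 were in the in vivo morula list and 8 in the morula list. Regions open in both morula lists and at the 8-cell and 16-cell stages, with no peak in any oocyte, 2-cell, 4-cell or blastocyst list, numbered 16 in the windows (3.55%) and 267 in the rest (1.92%), and 10 of the 16 and 225 of the 267 were in the day 14 list. Regions shared by the 2-cell, 4-cell and both blastocyst lists, without an oocyte peak, numbered 19 in the windows (4.21%) and 5 in the rest (0.0359%). This pattern did not exclude the other embryo lists. It therefore includes all regions of the first pattern, 18 in the windows and 5 in the rest, and nearly restates it. Since the windows were chosen on peaks of these lists, these percentages describe the windows and are no evidence beyond them. Regions found in 1 list only were 60.1% of those in the windows and 84.6% of those in the rest.

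The bases shared by all 9 embryo lists fell into 10 blocks when segments up to 20 kb apart were joined, a definition made after the values were seen. The first window had 1 block, from 25030729 to 25044199 (13.5 kb), and the second had 1, from 35645096 to 35648279 (3.18 kb). In the third window 8 blocks lay between 50842607 and 51630558, the longest from 50905203 to 50936344 (31.1 kb). The distances between neighbouring blocks there were 23.0, 27.7, 305, 163, 48.9, 62.1 and 91.0 kb, so the blocks were not evenly spaced. Across the 9 lists the first peak edge of a block shifted by 126 to 2748 bp (median 657 bp) and the last by 246 to 1054 bp (median 392 bp).

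The block of the first window filled in as development went on. The joined region ran from 25029576 to 25044772 (15.2 kb) and held the widest member of any list. Peaks covered 40.7% of it in 2-cell embryos (7 peaks, the widest 1379 bp), 39.1% in 4-cell embryos (6 peaks), and 60.8% in both 8-cell (5 peaks) and 16-cell embryos (10 peaks). In in vivo morulae 2 peaks covered 94.1%, and in morulae 5 peaks covered 86.0%. In in vivo blastocysts 3 peaks covered 94.2%, while in blastocysts 1 peak of 14956 bp covered 98.4% and in day 14 embryos 1 peak of 14806 bp covered 97.4%. The outer borders moved little in comparison, with the first edge between 25029576 in blastocysts and 25030678 in 4-cell embryos and the last between 25044199 in morulae and 25044772 in in vivo morulae.

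Behind this block lay a stretch of 82.7 kb, from 25044773 to 25127443, that had no peak in the oocyte, 2-cell or 4-cell lists. It held 1 peak in 8-cell embryos (0.469% of its bases), 3 in 16-cell embryos (1.21%) and 6 in morulae (3.85%). In in vivo morulae it held 32 peaks, 27.2% of its bases. In in vivo blastocysts there were 22 peaks (11.7%), in blastocysts 35 (13.3%) and in day 14 embryos 54 (70.4%), with a widest peak of 9818 bp. In these 4 lists the run stopped at nearly the same place, with its last peak ending at 25125944 in in vivo morulae, 25125602 in in vivo blastocysts, 25126734 in blastocysts and 25127443 in day 14 embryos. Beyond it the next peak was 25.1 kb away in in vivo morulae, 3611 kb in in vivo blastocysts, 2072 kb in blastocysts and 157 kb in day 14 embryos. All members of both blastocyst lists in the first window lay between 25029576 and 25126734.

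**Figure D4:**
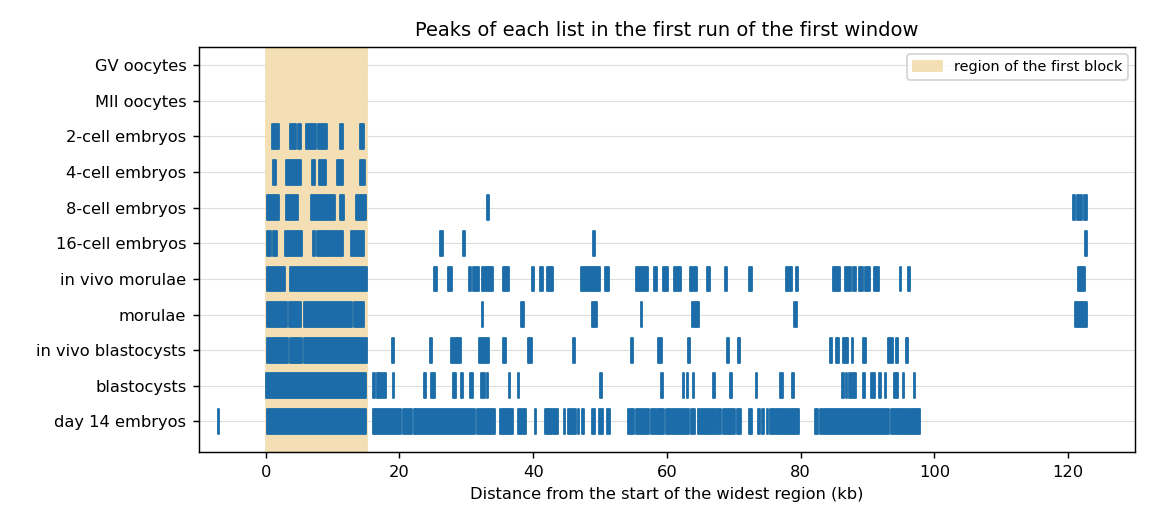
Peaks of each list (blue bars, to scale) along the first run of the first window, against the distance in kb from the start of the widest joined region, which is shaded. The shaded 15.2 kb hold peaks in the 9 embryo lists. The stretch to its right is empty in the oocyte, 2-cell and 4-cell lists, holds 1, 3 and 6 peaks in the 8-cell, 16-cell and morula lists, and 22 to 54 in the other 4.

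Farther along the first window another group of peaks had a different course over the stages. There the 2-cell list had 1 peak, from 25493057 to 25493801, and the 4-cell list 1, from 25493309 to 25493993. The 8-cell list had a cluster of 8 peaks from 25490323 to 25506737, the 16-cell list one of 11 peaks from 25471499 to 25499239, and the morula list one of 5 peaks from 25491553 to 25499477. In vivo morulae had 2 peaks, from 25495939 to 25496787 and from 25498116 to 25498577. The day 14 list had 7 peaks from 25475441 to 25498645, and neither blastocyst list had any.

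The second window held a wide peak in every embryo list and a narrower companion in all but one. The wide peak, in the region from 35644709 to 35648576, measured 3531 bp in 2-cell embryos, 3684 bp in 4-cell embryos, 3372 bp in 16-cell embryos, 3669 bp in in vivo morulae, 3315 bp in morulae, 3681 bp in in vivo blastocysts, 3370 bp in blastocysts and 3316 bp in day 14 embryos. In 8-cell embryos it was split into 2 peaks that covered 2828 bp. The companion of 593 to 950 bp stood 530 to 788 bp before it in 8 of the 9 embryo lists, the exception being the 8-cell list, and its start varied by only 199 bp, from 35643350 to 35643549. In blastocysts the pair was all that the window held, and in in vivo blastocysts the one further peak ran from 35519859 to 35520427. Other places in the window were open from the 8-cell stage to the morula, such as the region from 35144313 to 35147030. It was covered to 72.8% in 8-cell embryos, 9.79% in 16-cell embryos, 40.1% in in vivo morulae and 92.6% in morulae. This region had no peak in the 2-cell, 4-cell or blastocyst lists, but was covered to 71.5% in day 14 embryos.

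In the third window the widest region ran from 50865693 to 50875751 (10.1 kb) and was a single peak in in vivo blastocysts (10059 bp) and in in vivo morulae (9877 bp). Peaks covered 60.5% of it in 2-cell embryos, 55.6% in 4-cell, 59.6% in 8-cell and 72.0% in 16-cell embryos. Coverage was 98.2% in in vivo morulae and 83.8% in morulae, 100% in in vivo blastocysts and 81.4% in blastocysts, and 81.1% in day 14 embryos. The region from 50909479 to 50915752 (6.27 kb) was 1 peak in 6 lists, those of 8-cell embryos (5649 bp), in vivo morulae (6274 bp), morulae (6012 bp), in vivo blastocysts (6035 bp), blastocysts (5904 bp) and day 14 embryos (5852 bp), and was split into 2 or 3 peaks in the 2-cell, 4-cell and 16-cell lists. Of the region from 50928768 to 50936590 (7.82 kb), 59.0% was covered in 8-cell embryos, the lowest value, and 96.7% in in vivo blastocysts, where it was 1 peak of 7563 bp. Such filling was not seen everywhere, since the region from 51518841 to 51524042 was covered to 24.8% in 2-cell embryos, 7.71% in 8-cell embryos, 55.5% in in vivo blastocysts, 6.02% in blastocysts and 100% in day 14 embryos.

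Clusters of at least 3 peaks of a list with gaps up to 20 kb were then mapped on the whole chromosome. They took up 82.0% of members in 2-cell embryos, against 10.7% of the other chromosome 17 peaks, and 66.7% against 15.0% in 4-cell embryos. The shares were 75.6% against 60.4% in 8-cell embryos, 81.9% against 58.0% in 16-cell embryos, 83.8% against 54.0% in in vivo morulae and 80.4% against 64.6% in morulae. In in vivo blastocysts 94.6% of members and 34.5% of the other peaks were in clusters, and in blastocysts 97.4% and 42.9%. In day 14 embryos the share was lower in the windows, with 90.1% of members and 95.0% of the rest. The windows were chosen where the short embryo lists are dense, so a higher share in clusters there follows in part from the choice. These shares describe the windows and support nothing further. The largest cluster of members was that of day 14 embryos from 51376226 to 51647902, with 77 peaks over 272 kb.

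Cluster borders recurred between lists, and their places depended on the gap of 20 kb that ends a cluster. A long cluster of the third window began at 50842422 in 8-cell and 50842331 in 16-cell embryos, and at 50866094 in 4-cell embryos. The 2-cell list had 2 clusters there, from 50842418 to 50877464 and from 50905203 to 50936578. In the morula, blastocyst and day 14 lists the long cluster began at 50805156 to 50805519, within 363 bp. Single peaks outside the cluster began near that place in earlier lists too, at 50805599 in 4-cell, 50807773 in 8-cell and 50808165 in 16-cell embryos. Before position 50839859 this flank held no peak in 2-cell embryos, 2 in 4-cell, 1 in 8-cell and 1 in 16-cell embryos, 6 in in vivo morulae, 5 in morulae, 5 in in vivo blastocysts, 7 in blastocysts and 8 in day 14 embryos. The right end of the cluster lay at 50936420 in 4-cell, 50936344 in 8-cell and 50937742 in 16-cell embryos, at 50937815 in in vivo morulae and 50936428 in morulae, and at 50946341 in in vivo blastocysts, 50946342 in blastocysts and 50946353 in day 14 embryos, a spread of 12 bp among these last 3. Another cluster began between 51376132 and 51376911 in 7 lists, from 8-cell to day 14 embryos. Of the 120 cluster starts in the windows, 29.2% lay in groups from at least 3 lists with neighbouring starts no more than 500 bp apart, against 8.16% of 1176 starts in the rest, and for cluster ends the shares were 25.8% and 6.80%. This difference follows in part from the choice of windows dense in the short lists. The 2-cell, 4-cell, in vivo blastocyst and blastocyst lists had 6, 5, 9 and 11 clusters in the windows and only 2, 6, 3 and 2 in the rest.

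Over the 3 windows together members stood a few kb from their neighbours, and no repeat distance beyond 10 kb was common to the lists. The median distance between the centres of neighbouring members, in clusters or not, was 3.35 kb in 2-cell, 3.34 kb in 4-cell, 8.85 kb in 8-cell and 4.15 kb in 16-cell embryos, 4.01 kb in in vivo morulae, 5.51 kb in morulae, 3.90 kb in in vivo blastocysts, 2.50 kb in blastocysts and 2.89 kb in day 14 embryos. In the second window alone the median was 119 kb in 2-cell embryos, 13.6 kb in 16-cell embryos, 24.5 kb in in vivo morulae and 63.3 kb in in vivo blastocysts. There it was 2.72 to 8.03 kb in the other embryo lists. The medians over the 3 windows depend on how finely a stretch was cut into peaks. With peaks under 500 bp apart joined they were 7.75 kb in 2-cell, 8.59 kb in 4-cell and 8.13 kb in 16-cell embryos, 3.82 kb in blastocysts and 5.66 kb in day 14 embryos, each over 1.5 times as long. In the rest of the chromosome it was 664 kb in 2-cell embryos, 205 kb in 4-cell embryos and in in vivo blastocysts, 49.3 kb in blastocysts and 12.5 to 18.3 kb from the 8-cell stage to the morula, and in day 14 embryos it was shorter than in the windows, at 1.93 kb. Closer neighbours in the windows than in the rest follow in part from the choice of dense windows. All pair distances up to 50 kb were counted in bins of 1 kb to look for a regular repeat. In the third window the fullest bin lay under 10 kb in 9 of 9 embryo lists and held 3.28% to 7.03% of the pairs. Beyond 10 kb the fullest bin was a different one in each of the 9 lists. In the first window 6 of 9 lists had the same fullest bin, at 1 to 2 kb. Beyond 10 kb 4 of the 9 had theirs at 10 to 11 kb, where the 2-cell and 4-cell lists had 1 pair each. Of the 5 lists counted in the second window, 4 had their fullest bin under 10 kb. The exception was the day 14 list, with 8 pairs at 41 to 42 kb.

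Members were wider than other chromosome 17 peaks in every embryo list. Median widths in the windows and in the rest were 712 and 320 bp in 2-cell, 726 and 360 bp in 4-cell, 590 and 439 bp in 8-cell and 491 and 400 bp in 16-cell embryos. They were 712 and 553 bp in in vivo morulae, 590 and 513 bp in morulae, 640 and 368 bp in in vivo blastocysts, 312 and 234 bp in blastocysts and 271 and 220 bp in day 14 embryos. By window, the second had narrower medians than the rest in in vivo morulae (529 bp) and day 14 embryos (174 bp). In in vivo morulae the first window was nearly equal to the rest, at 561 bp. The quartiles of members and of other peaks overlapped in all 9 lists. Peak width was not used to choose the windows, but peaks that overlapped the list of the other label were wider in windows and rest alike. Among such peaks the rest had the wider median in morulae (901 against 842 bp), in vivo blastocysts (1066 against 820 bp) and blastocysts (473 against 369 bp). In in vivo morulae members had the wider one (1078 against 740 bp). Without such an overlap members had the wider median in each of these lists, in morulae by 421 against 420 bp.

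**Figure D5:**
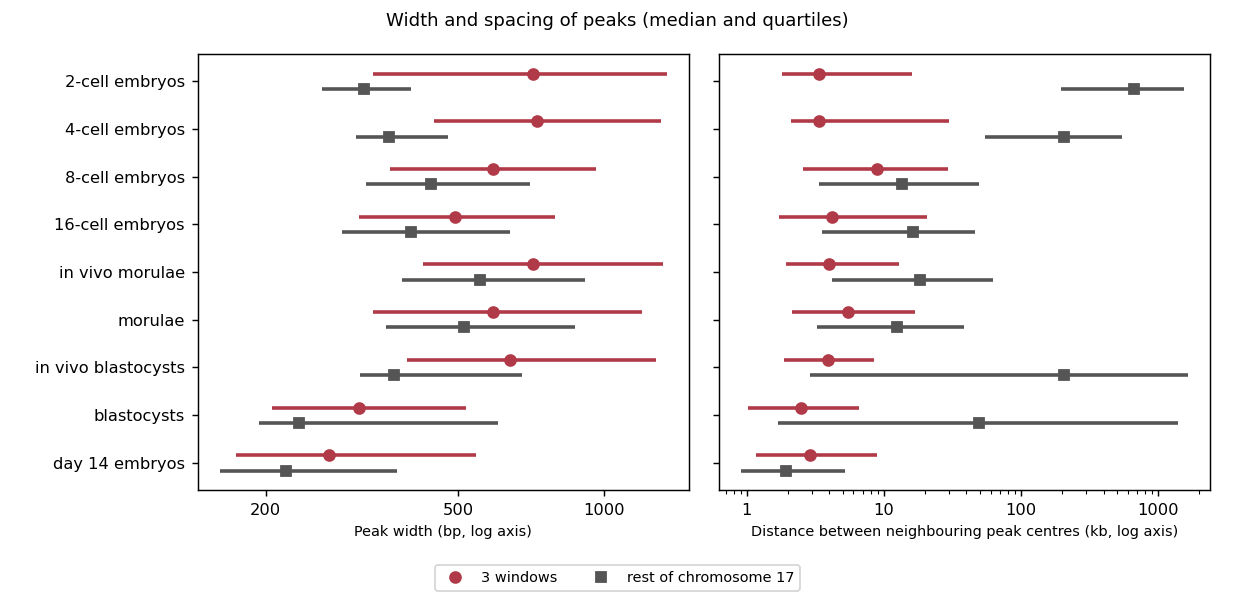
Median (points) and quartiles (lines) of peak width in bp and of the distance between neighbouring peak centres in kb, both on log axes, for the 3 windows and the rest of chromosome 17 in the 9 embryo lists. Over the 3 windows together members have a wider median in each list, and their median spacing stays between 2.50 and 8.85 kb while that of the rest runs from 1.93 to 664 kb.

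The overlap of members with peaks of other lists was described in the same way, although the windows were chosen where embryo lists are dense, so that a higher overlap there follows in part from the choice. Of the 50 members in 2-cell embryos, 72.0% overlapped a 4-cell peak (interval 57.5% to 83.8%), 86.0% a blastocyst peak (interval 73.3% to 94.2%) and 96.0% a day 14 peak (interval 86.3% to 99.5%). Of the 56 other 2-cell peaks, 19.6% overlapped a 4-cell peak (interval 10.2% to 32.4%), 19.6% a blastocyst peak and 55.4% a day 14 peak. Both blastocyst lists were short, and of the 168 morula members 41.1% overlapped a blastocyst peak (interval 33.6% to 48.9%), against 0.864% of the 2200 other morula peaks (interval 0.521% to 1.35%). By window, 22.2% of the 36 morula members in the first, 9.52% of the 21 in the second and 53.2% of the 111 in the third were found in blastocysts. Nearly all blastocyst members, 148 of 151 (98.0%, interval 94.3% to 99.6%), overlapped a day 14 peak, against 26 of the 42 other blastocyst peaks (61.9%).

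The in vivo lists had fewer and wider members than their counterparts without the label. Peaks in the rest of the chromosome had wider medians in vivo too, but their number was lower in vivo for morulae only. It was 1297 in in vivo morulae against 2200 in morulae, and 55 in in vivo blastocysts against 42 in blastocysts. The whole lists had 57039 peaks in in vivo morulae against 88858 in morulae, and 2587 in in vivo blastocysts against 3397 in blastocysts. Median widths in the rest of the chromosome were 553 bp in in vivo morulae and 513 bp in morulae, and 368 bp in in vivo blastocysts and 234 bp in blastocysts. In vivo morulae had 154 members over 184 kb and morulae 168 over 162 kb, and in vivo blastocysts had 111 over 135 kb against 151 over 99.3 kb in blastocysts. Median member widths were 712 bp in in vivo morulae and 590 bp in morulae, and 640 bp in in vivo blastocysts and 312 bp in blastocysts. Among members of at least 329 bp the in vivo lists had the higher numbers, by 1.06 times for morulae and 1.39 times for blastocysts. The stretch behind the first block was covered to 27.2% in in vivo morulae and 3.85% in morulae, while in in vivo blastocysts and blastocysts it was covered to 11.7% and 13.3%. Of the in vivo blastocyst members 71.2% (interval 61.8% to 79.4%) overlapped a blastocyst peak, against 38.2% (interval 25.4% to 52.3%) of the in vivo blastocyst peaks in the rest of the chromosome. In the other direction the shares lay closer together. An in vivo blastocyst peak was overlapped by 70.2% of blastocyst members (interval 62.2% to 77.4%) and 57.1% of the other blastocyst peaks (interval 41.0% to 72.3%). For in vivo morulae the shares overlapping a morula peak were 60.4% of members and 64.3% of the rest, and for morulae the shares overlapping an in vivo morula peak were 62.5% and 37.3%. The number of libraries merged, 4 and 6 for morulae and 4 and 3 for blastocysts, differed between the labels too, and its part in these differences cannot be told apart from that of the label.

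The window borders were round positions and were not drawn at the ends of clusters. The members closest to a border were a day 14 peak from 51998400 to 51998629, 1.49 kb inside 52 Mb, a morula peak from 25997351 to 25998557, 2.05 kb inside 26 Mb, a 16-cell peak from 35002739 to 35003077, 2.91 kb inside 35 Mb, and an 8-cell peak from 25003087 to 25003337, 3.21 kb inside 25 Mb. Just outside lay day 14 peaks from 49999576 to 49999739, 0.343 kb from 50 Mb, and from 34995086 to 34995230, 4.84 kb from 35 Mb, and a morula peak from 26010285 to 26010692, 10.5 kb from 26 Mb. At the other borders the nearest peaks were 139 kb inside and 61.8 kb outside 36 Mb, 14.4 kb inside 50 Mb, 96.7 kb outside 25 Mb and 45.3 kb outside 52 Mb.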

How the data were processed

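Per the series description, peaks called in single libraries were combined by the authors into 1 deposited list per group, which has 3 columns (chromosome, start and end) and no score. The submitters' processing notes name the build UMD3.1 and the tools Bowtie2 2.3, MACS2, HOMER and bedtools. Sources used here do not give the order of these steps, the peak threshold or the merging rule, and each can change the number and width of peaks. Starts were taken as counted from 0 and are printed from 1, a convention the lists do not state.

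The members, windows, stage patterns and blocks were chosen with earlier results of these data known. Chromosome length was taken as the last position in any list (75157098 for chromosome 17). Overlap meant at least 1 bp. Regions named were the 3 widest of each window, those found in all 9 embryo lists (the 5 widest if more), the widest member of each list and the members next to a window border, and the others were chosen after their values were seen. Cluster, overlap and union functions were tested on simulated intervals with planted answers, and the union of 14384 regions was equal to that of bedtools 2.31.1. Computation used pandas 2.3.3, numpy 2.4.6 and scipy 1.17.1 in Python 3.11.15, with figures by matplotlib 3.10.9.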

Additional observations from a re-analysis of the deposited data

Results flagged for a closer look

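The density of members relative to the rest of chromosome 17 differed between the lists with and without the in vivo label in opposite directions at the morula and blastocyst stages. The ratio was 2.11 in in vivo morulae and 1.36 in morulae, 1.55 times as high in vivo, and 35.9 in in vivo blastocysts and 64.0 in blastocysts, 0.561 times as high in vivo. With the other autosomes as background, a setting added after seeing the data, the contrast was 1.39 for morulae and 0.959 for blastocysts, so that the blastocyst difference was nearly gone. With 1 merged list per group this difference was not tested.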

How the results depend on the processing

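Of 141 values recomputed with other settings, 117 stayed within their limit, 22 moved further and 2 changed direction. The limit was 1.5 times for counts and otherwise the 95% interval of the share or median over peaks, which is wide in the short lists. For the density ratio in vivo over that without the label, the limit was only to stay on the same side of 1. The blastocyst change from 0.561 to 0.959 therefore counts as within its limit. With only peaks of at least 329 bp, the median width over all lists, the ratio of members in vivo to members without the label was 1.06 for morulae and 1.39 for blastocysts, above 1 in place of below it. That filter gave density ratios of 28.5 in 2-cell, 8.15 in 4-cell and 0.751 in day 14 embryos, 67 members in blastocysts and 145 in day 14 embryos, a spacing of 3.75 kb in blastocysts and 12 clusters in day 14 embryos. With the other autosomes as background the density ratio was 1.73 in in vivo morulae and 1.24 in morulae, and 31.1 in in vivo blastocysts and 32.4 in blastocysts. Joining peaks under 500 bp apart gave spacings of 7.75 kb in 2-cell and 8.59 kb in 4-cell embryos, within that interval, and of 8.13 kb in 16-cell embryos, 7.85 kb in morulae, 3.82 kb in blastocysts and 5.66 kb in day 14 embryos, and median widths of 862 bp in in vivo morulae and 361 bp in blastocysts. Gaps up to 50 kb left 9 clusters in in vivo morulae, 4 in in vivo blastocysts, 5 in blastocysts and 12 in day 14 embryos, and gaps up to 10 kb gave 17 in blastocysts. Where a list had to cover 50% of a region, 9 regions in the windows and 1 in the rest were found in all 9 embryo lists. The cause of these changes was not tested. No paired analysis was possible because each group had 1 merged list, and for the same reason no library could be left out. Depth is unknown, so a region with no peak in a short list is not shown to be closed there.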
